A study of Bos taurus with 6 samples.

Results

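A set of 9 stress-response genes, grouped here as targets of p53, was followed in bovine rumen epithelial primary cells (REPC) with and without butyrate. They were MDM2, GADD45A, GADD45B, SESN1, PLK2, BTG2, ZMAT3, FAS and TP53INP1. The genes were chosen by symbol, and each had 1 row among the 32183 genes listed for every culture; all 9 were among the 15813 genes that passed the filter on low values (FPKM averaging 0.1 or more over the cultures). FPKM is the number of sequenced fragments scaled by the length of the transcript and by the mapped fragments of the library, so levels can be set side by side between genes. REPC were grown from the rumen wall of 1 Holstein bull calf of 2 weeks that had received only milk replacer. Libraries prepared from total RNA were sequenced for 3 cultures harvested 24 h after the addition of 5 mM butyrate and for 3 untreated control cultures. Butyrate is a short-chain fatty acid made by microbes in the rumen, an energy source for the rumen wall and an inhibitor of histone deacetylases. All cultures came from the same calf, so that the p-values measure the spread between cultures and not between animals, and the study describes the controls as the state ahead of treatment without giving their hour of harvest, so that time in culture and butyrate may not be told apart.

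The transcription factor p53 is held at a low level in unstressed cells and accumulates after DNA damage and other stress. It then activates genes that stop the cell cycle, repair DNA, adjust metabolism or start cell death, and it also activates MDM2, whose product marks p53 for degradation and so closes a feedback loop. Many of these genes also have activators other than p53, so their mRNA level is not a reading of p53 activity.

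The 6 cultures separated by treatment. The correlation of log2 FPKM was at least 0.9948 within a group and at most 0.9663 between groups. The summed FPKM of a culture was 678035 to 681912 in the controls and 619401 to 629037 after butyrate, and the median log2 fold change of all tested genes was 0.10. Of all tested genes, 32.5% rose and 25.9% fell (limma, Benjamini-Hochberg adjusted p under 0.05). The tables hold no read counts. If the deposited confidence bounds are read as counting error alone, an approximation, they correspond to 107 to 138 fragments per culture for SESN1, the lowest of the 9 genes, and 6636 to 11815 for PLK2, the highest. The markers of the cell type and of its possible neighbours moved too. Summed FPKM of 9 epithelial markers was 2420 to 2528 in the controls and 5046 to 5129 after butyrate, with 6 markers higher and 1 lower. KRT14, KRT19, PKP1 and EPCAM changed most, and EPCAM averaged only 0.540 FPKM in the controls. The mean of KRT19 alone went from 492.3 to 1953 FPKM, so the sum does not stand for every marker. KRT5 was the 1 that fell, from 400.8 to 355.9 FPKM (limma adjusted p = 0.0323). CDH1 (49.8 and 48.9 FPKM, limma adjusted p = 0.707) and DSP (7.96 and 7.90 FPKM, limma adjusted p = 0.904) passed in neither direction. The sum of 10 fibroblast markers was 4373 to 4528 in the controls and 6391 to 6734 after butyrate, and 8 of the 9 that could be tested rose. VIM and COL1A1 were the most abundant of these in the controls (means of 2464 and 1149 FPKM), so that transcripts of both lists were plentiful in every culture, and THY1, LUM, PDGFRA and COL1A1 rose most. LUM, at a mean of 0.149 FPKM in the controls, lost its call under quantile normalization (adjusted p = 0.213) and in the fits without control replicate 1 or 2 or any 1 butyrate culture, and PDGFRA lost its call under quantile normalization (adjusted p = 0.0634). Immune markers summed to 5.72 to 8.35 and then 9.71 to 11.7. CD14, the most abundant of them, averaged 5.575 FPKM in the controls and 6.803 after butyrate and passed in neither direction (adjusted p = 0.200). PTPRC was at 0 in all 6 cultures. CD74 and CD68 were higher, the latter a call lost under quantile normalization (adjusted p = 0.253). Endothelial markers summed to 1.95 to 2.07 and then 6.48 to 8.43, with CDH5 at 0 in all 6 cultures and VWF and PECAM1 higher. Their part in the results that follow was not tested. In bulk RNA, fewer cells of a type and less RNA per cell cannot be told apart.

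Of the 9 genes, 5 rose after butyrate (GADD45A, GADD45B, PLK2, TP53INP1 and SESN1), 2 fell (FAS and MDM2) and 2 passed in neither direction (BTG2 and ZMAT3). Against 32.5% and 25.9% of all tested genes, these counts of 5 and 2 in 9 genes describe the set and do not mark it off from other genes. Among 12079 tested genes that averaged 1 FPKM or more, as every one of the 9 did, 33.5% rose and 32.7% fell. The butyrate values lay wholly above the control values for 5 genes and wholly below for 2, as they did for 36.1% and 28.9% of all tested genes. The median log2 fold change of the 9 genes was 0.49, beside 0.10 over all tested genes. None was a differentially expressed gene by the study's thresholds (a change beyond 2 on the log2 scale with p under 0.05 after Bonferroni correction). Here these thresholds were applied to limma p-values, whereas the study tested with Cufflinks, so that the calls are not the study's own. In the limma fit 2.46% of tested genes passed them upward and 1.51% downward. By limma, 7 of the 9 had an unadjusted p under 0.05 and 3 a Bonferroni-corrected p under 0.05. Taken singly, the 7 genes that moved had a two-sided exact permutation p of 0.1, the smallest that 3 against 3 cultures allow, with 0.6 for BTG2 and 0.2 for ZMAT3.

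**Figure D1:**
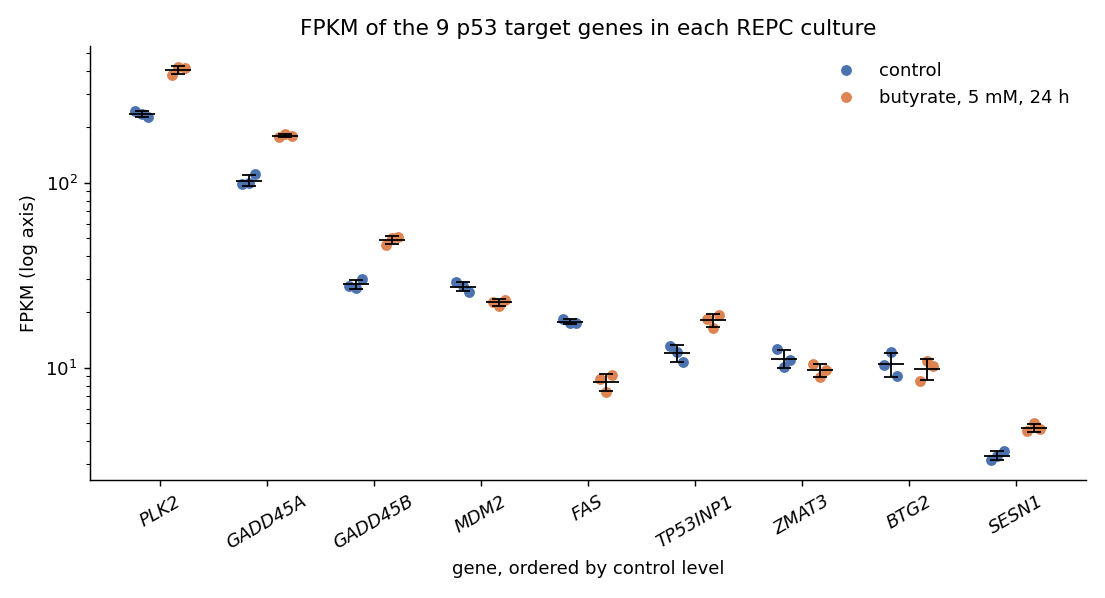
FPKM (log axis) of the 9 genes in each of the 3 control and 3 butyrate cultures, ordered by control level, with 1 point per culture. PLK2 was highest in both groups, at 226.8 to 243.6 in the controls and 382.2 to 421.1 after butyrate, and SESN1 was lowest in both.

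MDM2 encodes the ubiquitin ligase of the feedback loop. On UMD3.1, the genome build named in the submitters' processing notes, it lies on chromosome 5 from 45177051 to 45203602. The controls measured 28.9, 27.6 and 25.7 FPKM in the order of their replicate numbers, as throughout, and the butyrate cultures 22.7, 21.5 and 23.3 FPKM. All butyrate cultures lay below all controls, although by a small margin. The mean fell from 27.4 ± 1.59 to 22.5 ± 0.901 (SD, n = 3 each), or -0.28 on the log2 scale (standard error 0.071, limma adjusted p = 0.00866). The call was lost when each culture was rescaled to the same total FPKM (-0.16, adjusted p = 0.0850). The paralog MDM4, which binds p53 without degrading it by itself, averaged 3.22 FPKM in the controls and 2.61 after butyrate (adjusted p = 0.186). MDM2 made up 89.5% of the summed MDM2 and MDM4 FPKM before and 89.6% after butyrate (exact permutation p = 1).

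GADD45A and GADD45B encode small stress proteins that bind cell cycle and MAP kinase regulators. GADD45A (chromosome 3, 77972151 to 77975240) was at 97.9, 99.1 and 110.9 FPKM in the controls and 175.9, 183.3 and 178.5 FPKM after butyrate. The groups did not overlap, and the mean rose from 102.6 ± 7.15 to 179.2 ± 3.74 (log2 fold change 0.81, standard error 0.056, limma adjusted p = 4.87e-06). GADD45B (chromosome 7, 22411967 to 22414079) stood lower, at 27.7, 27.0 and 29.96 FPKM in the controls, and reached 46.1, 50.4 and 50.9 FPKM after butyrate. Its groups did not overlap either, and the mean rose from 28.2 ± 1.56 to 49.1 ± 2.62 (log2 fold change 0.80, standard error 0.068, adjusted p = 1.59e-05). The test found no difference between the 2 changes. The log2 ratio of GADD45A to GADD45B within a culture was 1.86 ± 0.0353 in the controls and 1.87 ± 0.0606 after butyrate, a difference of 0.0072 with a standard error of 0.040 (exact permutation p = 1).

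The third family member, GADD45G, went the other way. It measured 42.6, 41.5 and 41.4 FPKM in the controls and 24.7, 23.4 and 34.2 FPKM after butyrate, and fell by 0.63 on the log2 scale (standard error 0.13, adjusted p = 0.00315). The ratio of GADD45A to GADD45G rose by 1.43 on the log2 scale (standard error 0.19), and that of GADD45B to GADD45G by 1.43 (standard error 0.16). Each had an exact permutation p of 0.1 and an adjusted p of 0.133 over the 8 ratios compared. The summed FPKM of the family went from 172.7 ± 8.26 to 255.8 ± 8.55, and GADD45A supplied 59.4% of it in the controls and 70.1% after butyrate.

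PLK2 encodes a polo-like kinase that acts in centriole duplication and in the response to stress. It was the most abundant of the 9 genes in every culture. PLK2 (chromosome 20, 20854606 to 20860584) was at 243.6, 235.1 and 226.8 FPKM in the controls and 382.2, 421.1 and 418.5 FPKM after butyrate. The butyrate cultures all lay above the controls, with means of 235.1 ± 8.41 and 407.3 ± 21.7 (log2 fold change 0.79, standard error 0.050, limma adjusted p = 2.70e-06). The paralogs that drive or accompany cell division moved the opposite way. PLK1, the mitotic kinase, fell from 37.3 ± 3.54 to 0.788 ± 0.115 FPKM (log2 fold change -5.40, adjusted p = 3.86e-08). PLK4, which starts centriole duplication, fell from 6.65 ± 0.938 to 0.716 ± 0.109 FPKM (-3.05, adjusted p = 2.20e-06). PLK3, itself a stress kinase, fell from 18.8 ± 1.13 to 12.0 ± 1.23 FPKM (-0.65, adjusted p = 0.000489). PLK5, at 0, 0.144 and 0 FPKM in the controls and 0.376, 0.433 and 0.379 FPKM after butyrate, rose (adjusted p = 0.00843), a call lost under quantile normalization. PLK2 made up 78.9% ± 1.02 of the summed family FPKM in the controls and 96.7% ± 0.380 after butyrate (exact permutation p = 0.1).

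BTG2 encodes an antiproliferative protein that binds the mRNA deadenylase complex. BTG2 (chromosome 16, 890031 to 894164) measured 10.4, 12.1 and 8.98 FPKM in the controls and 8.43, 10.9 and 10.2 FPKM after butyrate. The groups overlapped. The log2 fold change was -0.09 with a 95% interval of -0.41 to 0.23 (limma adjusted p = 0.604), and its sign changed with the scaling. Its paralog BTG1 was the more abundant and rose from 67.0 ± 1.94 to 96.7 ± 5.96 FPKM (log2 fold change 0.53, adjusted p = 7.30e-05). The within-culture ratio of BTG2 to BTG1 changed by -0.62 on the log2 scale (standard error 0.16, exact permutation p = 0.1). BTG3 had means of 57.2 and 49.2 FPKM (-0.21, adjusted p = 0.0186), a call that was lost under several other settings. BTG4 was at 0 in every control and at most 0.0860 FPKM after butyrate, too low to be tested.

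**Figure D2:**
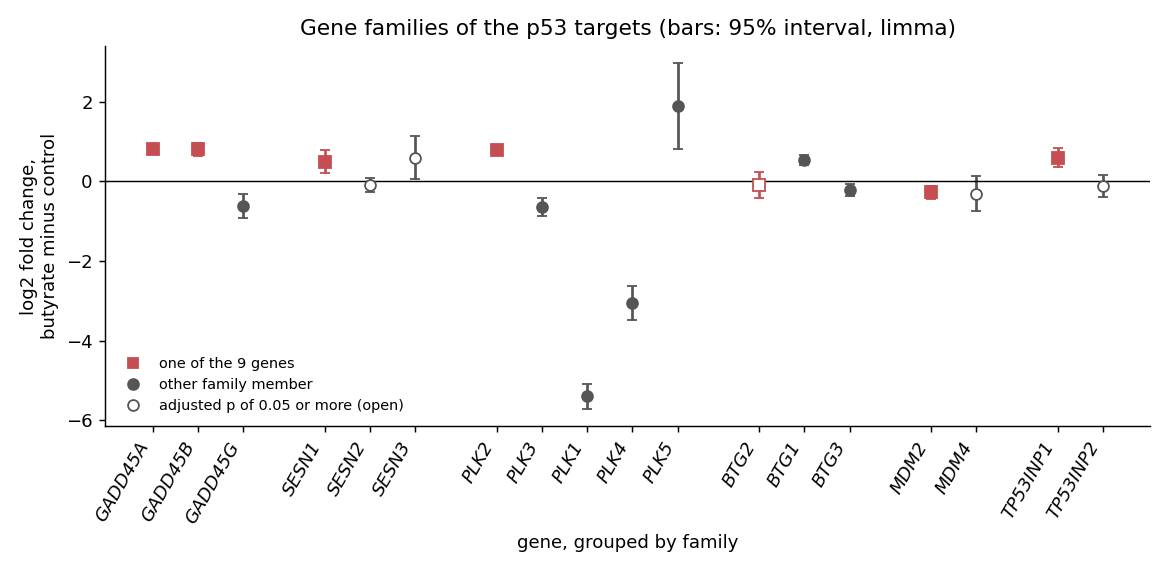
Log2 fold change (butyrate minus control) of the p53 targets and of their paralogs, grouped by family, with 95% limma intervals. GADD45A, GADD45B and PLK2 lie between 0.79 and 0.81, whereas GADD45G lies at -0.63 and PLK1 at -5.40.

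SESN1 encodes a sestrin, a stress protein that restrains mTORC1 when amino acids are short. SESN1 (chromosome 9, 41554633 to 41690068) was the lowest of the 9 genes, at 3.17, 3.34 and 3.52 FPKM in the controls and 4.56, 4.99 and 4.65 FPKM after butyrate. All butyrate values exceeded all control values, and the mean rose from 3.34 ± 0.180 to 4.73 ± 0.231 (log2 fold change 0.49, standard error 0.13, limma adjusted p = 0.00937). The call was lost under quantile normalization (0.33, adjusted p = 0.0526). For SESN2 the log2 fold change was -0.10 (adjusted p = 0.277), and for SESN3 it was 0.59 (adjusted p = 0.0563). SESN3, at means of 0.685 and 1.09 FPKM, passed the test with a pseudocount of 1 (adjusted p = 0.0406), without the variance trend (adjusted p = 0.00707) and after rescaling to equal totals (adjusted p = 0.0300), while quantile normalization brought its log2 fold change to 0.028. The sum of the 3 sestrins averaged 20.02 FPKM before and 20.7 FPKM after butyrate (exact permutation p = 0.3), while the SESN1 share went from 16.7% ± 1.04 to 22.9% ± 1.23 (exact permutation p = 0.1). The listed locus of CEP57L1, which fell by 0.67 on the log2 scale, lies 286 bases from that of SESN1.

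TP53INP1 encodes a stress protein that promotes p53 phosphorylation and autophagy. TP53INP1 (chromosome 14, 71736956 to 71753198) was at 13.1, 12.2 and 10.7 FPKM in the controls and 18.4, 16.5 and 19.3 FPKM after butyrate. The groups did not overlap, and the mean rose from 12.0 ± 1.22 to 18.1 ± 1.47 (log2 fold change 0.59, standard error 0.10, limma adjusted p = 0.00124). The paralog TP53INP2, an autophagy factor, had a log2 fold change of -0.12 (adjusted p = 0.426), and TP53INP1 went from 63.2% to 73.7% of the pair (exact permutation p = 0.1).

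ZMAT3 encodes a zinc-finger protein that binds RNA and shapes splicing. ZMAT3 (chromosome 1, 88632286 to 88670831) measured 12.5, 10.02 and 11.0 FPKM in the controls and 10.5, 8.88 and 9.67 FPKM after butyrate. The groups overlapped, and the change was -0.20 on the log2 scale with a 95% interval of -0.46 to 0.055 (limma adjusted p = 0.155).

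FAS encodes the death receptor that starts the extrinsic route of apoptosis, and it had the largest change of the 9 genes. FAS (chromosome 26, 10714193 to 10751782) was at 18.4, 17.4 and 17.4 FPKM in the controls and 8.65, 7.40 and 9.11 FPKM after butyrate. The butyrate cultures all lay far below the controls, and the mean fell from 17.7 ± 0.580 to 8.39 ± 0.885 (log2 fold change -1.07, standard error 0.099, limma adjusted p = 2.53e-05). Its ligand gene FASLG was listed at 0 in all 6 cultures. The listed locus of FAS overlaps by 789 bases that of ACTA2, the smooth muscle actin gene, whose FPKM was much higher and fell from 2752 ± 99.7 to 1006 ± 157.3 (-1.46, adjusted p = 3.99e-06). Whether the counting used strand was not given in the sources used here, so that reads of the 2 genes in the shared stretch may not have been told apart and the FAS values are uncertain. The within-culture log2 ratio of FAS to ACTA2 was -7.27 ± 0.0991 in the controls and -6.88 ± 0.0801 after butyrate (difference 0.39, exact permutation p = 0.1), and the part of shared reads was not tested.

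**Figure D3:**
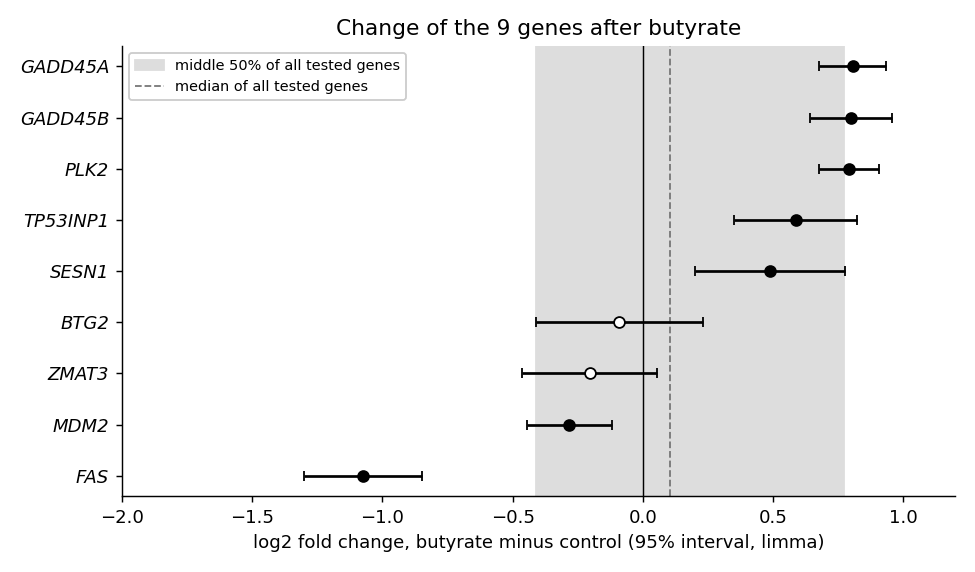
Log2 fold change of each gene (butyrate minus control) with its 95% limma interval, filled where the adjusted p was under 0.05, over a grey band for the middle 50% of all tested genes. GADD45A, GADD45B and PLK2 lie just above the upper edge of the band at 0.77, and FAS at -1.07 lies below its lower edge at -0.41.

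Set against all tested genes, these changes were moderate. The upper quartile of the log2 fold change over all tested genes was 0.77 and the lower quartile -0.41. GADD45A, GADD45B and PLK2 lay at percentiles 75.9, 75.7 and 75.5 of that distribution, TP53INP1 at 69.8 and SESN1 at 66.5. MDM2 lay at percentile 30.3 and FAS at percentile 8.27.

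By group means the 4 most abundant genes ranked alike in both groups, while FAS, TP53INP1 and BTG2 changed rank. In the controls PLK2 was highest, 2.29-fold above GADD45A, which in turn was 3.64-fold above GADD45B. GADD45B and MDM2 did not separate (1.03-fold, values overlapping), and MDM2 was the higher in control replicates 1 and 2. FAS came next, and TP53INP1, ZMAT3 and BTG2 overlapped as neighbours above SESN1. After butyrate GADD45B stood 2.18-fold above MDM2 with no overlap. FAS moved from rank 5 to rank 8, where it overlapped with ZMAT3. TP53INP1 moved up from rank 6 to rank 5, and BTG2 from rank 8 to rank 6, next to ZMAT3, with which it overlapped in both groups. The summed FPKM of the 9 genes was 443.8 to 455.7 in the controls and 677.4 to 724.8 after butyrate, of which PLK2 supplied 51.0% to 53.5% and then 56.4% to 58.1%.

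**Figure D4:**
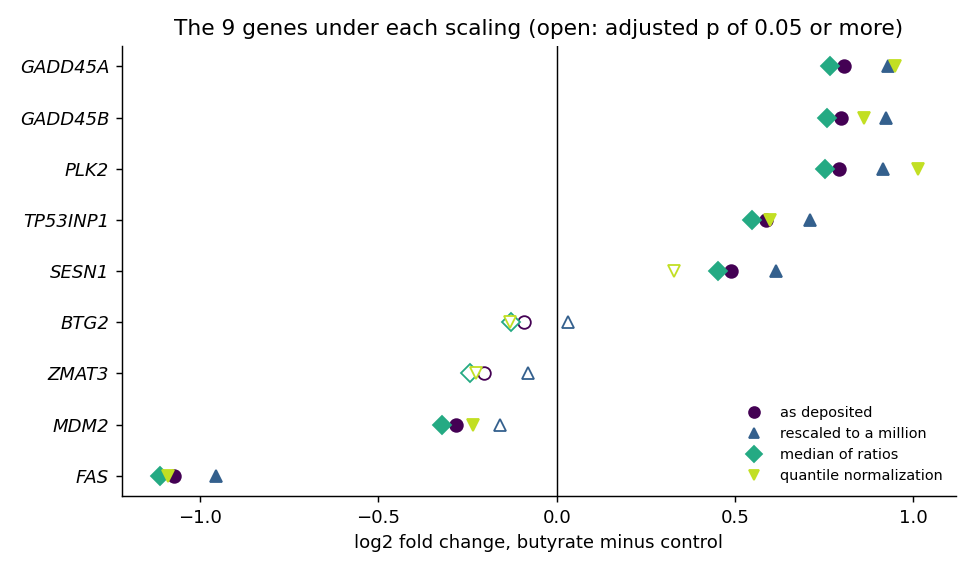
Log2 fold change of each gene (butyrate minus control) under the deposited scale and 3 other scalings, filled where the adjusted p was under 0.05 and open otherwise. MDM2 loses its call after rescaling to equal totals, SESN1 after quantile normalization, and BTG2 lies on either side of 0.

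A list of 59 other genes known as p53 targets held 55 genes in the tables and 50 that could be tested, of which 17 rose, 13 fell and 20 passed in neither direction, with a median log2 fold change of 0.073. These counts lay close to the 32.5% that rose and 25.9% that fell among all tested genes, whose median was 0.10, and the counts by role are too small to be read against those shares. By the study's thresholds, applied to limma p-values, 1 of them passed upward (IGFBP3) and 2 downward (GTSE1 and POLH). Among 8 targets that act in cell cycle arrest, 3 rose and 3 fell. GTSE1, which restrains p53 in the G2 phase, fell from 18.0 to 1.13 FPKM (log2 fold change -3.92, limma adjusted p = 7.78e-07). ZNF385A, which steers p53 toward arrest genes, rose from 2.20 to 8.86 FPKM (1.99, adjusted p = 8.04e-05). CDKN1A, the inhibitor of cyclin-dependent kinases that is the best known p53 target, rose from 209.9 ± 2.93 to 283.6 ± 8.78 FPKM (0.43, adjusted p = 2.45e-05), while CCNG1, cyclin G1, fell from 96.4 to 40.6 FPKM (-1.25, adjusted p = 1.19e-06). CDKN1A, CCNG1, BAX, RPS27L and GDF15 were chosen after their values were seen.

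Of 16 testable targets that act in apoptosis, the role of FAS, 1 rose, 5 fell and 10 passed in neither direction. IGFBP3, a binding protein of insulin-like growth factors, was the 1 that rose, from 18.8 to 92.4 FPKM (2.28, limma adjusted p = 1.46e-06). BAX, a pore-forming effector of cell death, averaged 147.8 and 143.0 FPKM (adjusted p = 0.631), and the sign of its change depended on the scaling. RPS27L, a ribosomal protein homologue, fell from 756.1 to 442.2 FPKM (-0.78, adjusted p = 1.91e-06). Of 6 DNA repair targets 3 rose and 1 fell, the latter being POLH, the polymerase that bypasses ultraviolet lesions (11.2 to 2.55 FPKM, -2.10, adjusted p = 1.71e-06). Of 4 testable autophagy and lysosome targets, the role of TP53INP1, 3 rose and none fell. Of 8 targets in metabolism and antioxidant defence, the role of SESN1, 4 rose and 2 fell, and of 4 feedback genes 1 rose. Among 4 secreted or surface products, 2 rose and 2 fell. GDF15, a stress cytokine, went from 29.7 to 65.8 FPKM (1.16, limma adjusted p = 6.06e-05).

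**Figure D5:**
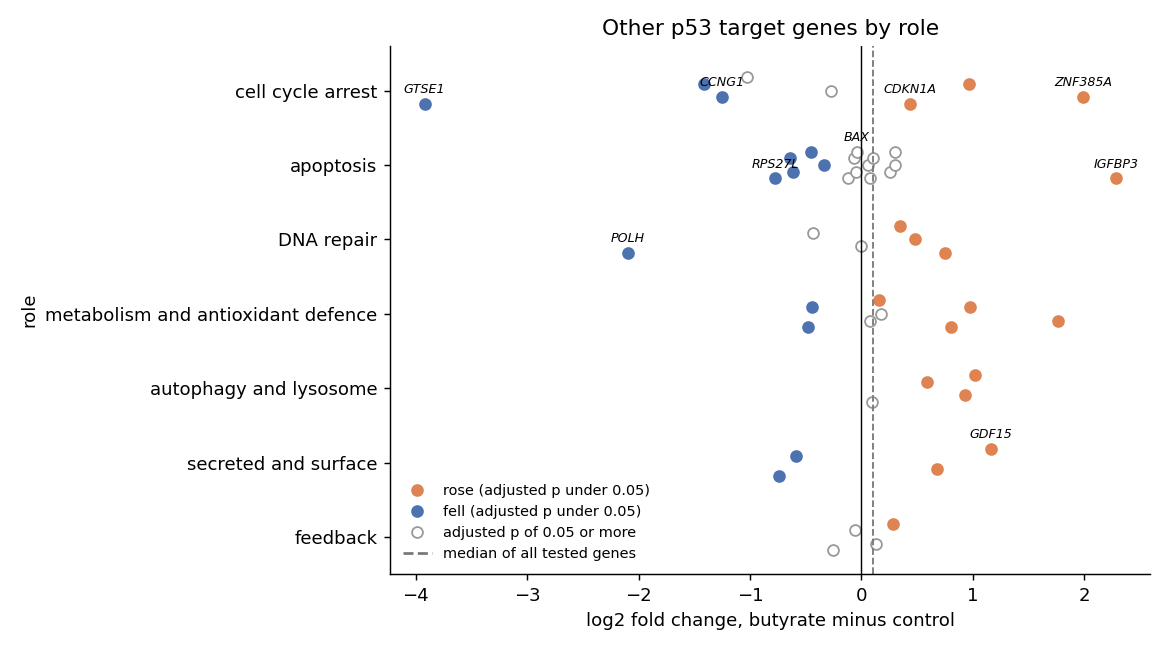
Log2 fold change (butyrate minus control) of the 50 testable other p53 target genes, 1 point per gene, grouped by role and coloured by whether the gene rose, fell or passed in neither direction. The points of most roles lie on both sides of 0, from GTSE1 at -3.92 to IGFBP3 at 2.28.

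Of 20 tested genes for regulators, cofactors and relatives of p53, 8 fell, 3 rose and 9 passed in neither direction. Among all tested genes 25.9% fell and 32.5% rose. All 4 testable genes of p53 acetylation fell, among them the acetyltransferase KAT5 (18.6 to 8.81 FPKM, -1.07, limma adjusted p = 4.63e-05) and the deacetylase SIRT1 (4.32 to 2.05 FPKM, -1.03, adjusted p = 0.000987). Of 6 kinases 2 fell, the checkpoint kinases CHEK2 (3.66 to 0.799 FPKM, -2.08, adjusted p = 8.76e-05) and CHEK1 (5.93 to 2.99 FPKM, -0.97, adjusted p = 0.000662). Of 5 genes of ubiquitin control, a list that holds MDM4 but not MDM2, 1 fell, and of 5 cofactors and relatives 3 rose and 1 fell.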

How the data were processed

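RNA-seq was measured in 6 REPC cultures, 3 per group, grouped by the labels. The authors trimmed paired reads with Trim Galore 0.4.1, aligned them with STAR keeping unique reads, and deposited Cufflinks FPKM per gene (fragments scaled by transcript length and mapped fragments); the submitters' processing notes name UMD3.1. The tables give no counts per gene, so no counting interval is printed; the study's read totals are not used here. Strand use was not given in the sources used here. Chromosome numbers follow from the accessions in the tables and matched the RefSeq gene table (ARS-UCD2.0) by name for all 9 genes.

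The 15813 genes whose FPKM averaged 0.1 or more were tested on log2(FPKM + 0.1) with limma 3.58.1 in R 4.3.3 (trended empirical Bayes, all 6 cultures, no covariate); 2 genes with failed estimates were left out. Fold changes on this scale understate those of low genes. A gene rose or fell at a Benjamini-Hochberg adjusted p under 0.05 over all tested genes. Single values and ratios had two-sided exact permutation tests over the 20 divisions of the 6 cultures. The p-values of the ratios had Benjamini-Hochberg adjustment (scipy 1.17.1). The method was tested on simulated data with normal noise and few changed genes. The real data had many changed genes, so this checks the calculation only. No 2 cultures shared more than 1 identical non-zero value.

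The members and gene lists were chosen with earlier results of these data known. All 9 genes and their measured paralogs are named, and of every other list the 4 with the largest change among called genes without overlap. Other pseudocounts, filters, scalings, a replicate block, Bonferroni adjustment and leaving out each culture were tried, and a ratio of group means was added after seeing the data. The gene encoding p53 itself and some other genes are not reported here.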

Additional observations from a re-analysis of the deposited data

How the results depend on the processing

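GADD45A, GADD45B, PLK2, FAS and TP53INP1 were called at an adjusted p under 0.05 in each of the 9 settings on all cultures and in each of 6 fits without 1 culture. None of these settings dealt with the stretch that FAS shares with ACTA2, so the FAS values stay uncertain. Over all tested genes the median log2 fold change went from 0.10 to 0.23 after rescaling to equal totals (TPM). It went to -0.045 under quantile normalization, where 4284 genes rose and 4679 fell, against 5144 and 4091 on the deposited scale. Rescaling gave 5924 genes that rose and 3387 that fell. After rescaling to equal totals, 1 of the 9 genes fell, their median log2 fold change was 0.62 and that of the other p53 targets 0.20, and the log2 fold changes of BTG2 (0.032), SESN2 (0.019), TP53INP2 (0.0033) and BAX (0.080) changed sign. Quantile normalization gave a median of 0.33 for the 9 genes and 0.085 for BAX. With Bonferroni adjustment 3 of the 9 genes rose and 0 fell (FAS at an adjusted p of 0.0512), and 6 other targets rose and 6 fell. Leaving out 1 culture moved BTG2 between -0.20 and 0.019, with its sign changed without control replicate 2 (0.019) or butyrate replicate 1 (0.015). It moved BAX between -0.0914 and 0.040, positive without control replicate 3. The count of other targets past the study's thresholds upward was 1, against 0 without the variance trend and 0 to 1 with 1 culture left out (1 only without butyrate replicate 2), and downward it was 2, against 1 with a pseudocount of 1, 1 without the trend, 1 after rescaling to equal totals and 0 to 2 with 1 culture left out (0 without control replicate 1 or butyrate replicate 3, 1 without control replicate 2 or butyrate replicate 1 or 2). The cause of these changes was not tested. Same-numbered cultures did not deviate together (correlations of 0.023, -0.0043 and 0.0018), so that a replicate number was taken only as a name. With a replicate block 5 of the 9 genes rose and 2 fell, and 16 other targets rose. Cultures of 1 calf and tables without read counts limit the precision.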

Other observations

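For 8 of the 9 genes, the tested gene whose log2 FPKM followed it most closely over the 6 cultures was named by the highest Pearson r, as a description over points that form 2 groups of 3. It was SQSTM1 for PLK2, KIF5C for GADD45A, MORN4 for GADD45B, SCLY for SESN1, TLCD2 for TP53INP1, NEDD4 for MDM2, DALRD3 for FAS and DNAJC1 for BTG2. For PLK2 2371 genes had an r over 0.95, for MDM2 371, for ZMAT3 22 and for BTG2 8.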
